A study of Mus musculus with 2 samples.

Results

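The miR-23, miR-27 and miR-24 microRNAs of the mouse are encoded in 2 copies of a cluster, with Mir23a, Mir27a and Mir24-2 on chromosome 8 and Mir23b, Mir27b and Mir24-1 on chromosome 13. These 6 genes, selected by name from 1973 microRNA gene rows, were compared position by position between the clusters. For 5 of them the counts on the annotated strand were read. Mir24-1 has no row of its own in the tables and was read from the opposite strand of the row Mir3074-1, which is annotated across it on the minus strand. The libraries hold RNA of less than 30 bases from the skeletal muscle of B6NCrl mouse pups on postnatal day 0, and the 2 of them form a single group. Each sample was a portion of muscle from 1 pup. The labels give the replicates separate tissue records but the same donor record, so the spread between them may be technical in part.

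MicroRNAs are cut from hairpin precursors, and the arm that is loaded into Argonaute pairs with messenger RNAs mainly through its seed, bases 2 to 8. Genes of a cluster are transcribed together as a long primary transcript and are then cut out hairpin by hairpin. The miR-23/27/24 microRNAs are known from endothelial cells and muscle. In the mouse, miR-27 lowers Pax3, a regulator of muscle progenitors, and the growth inhibitor myostatin. MiR-23a lowers the atrophy ubiquitin ligases of muscle, and miR-24 has been linked to myoblast differentiation.

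The main arms are shown because they decide which reads can tell the copies apart, with the seed in capitals, 5′ to 3′ (RefSeq, GRCm38.p6). All 7 genes used, Mir3074-1 included, matched the RefSeq table, which held no mature entry for miR-23b-3p.
miR-23a-3p: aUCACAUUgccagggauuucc
miR-27a-3p: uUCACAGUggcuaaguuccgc
miR-27b-3p: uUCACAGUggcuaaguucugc
miR-24-3p: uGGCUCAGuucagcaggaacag
The seeds of miR-23a-3p and miR-27a-3p differ at a single base, U7G, with the base of miR-23a-3p first and positions counted from 1 at the 5′ end. The 2 miR-27 main arms have the same seed and differ at C19U, with the base of miR-27a-3p first. Read from its 5′ end, either arm is found in a single hairpin of the 1005 in the table only from 19 bases on. MiR-23a-3p also needs 19 bases. MiR-24-3p is the same in both hairpins over its 22 bases, so no length of it tells Mir24-2 from Mir24-1.

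The sequence that the hairpins of Mir24-2 and Mir24-1 share reaches beyond the arm on either side. In the line that follows, the capitals mark miR-24-3p within the 28 shared bases.
shared run: cacUGGCUCAGUUCAGCAGGAACAGgag
An exact read of miR-24-3p with up to 3 further bases at each end therefore fits both copies. The tables keep reads with several possible places out of the gene rows, 28.01% of all reads in the library of replicate 1 and 26.9% in that of replicate 2. The counts of Mir24-2 and Mir24-1 leave out such reads, and the level of miR-24-3p itself is not given by these tables. Reads from the 5′ end of miR-23a-3p, miR-27a-3p or miR-27b-3p that are shorter than 19 bases fit several hairpins. They are left out in the same way, in unknown number. The other arms of the pair are shown because they can be told apart.
miR-24-2-5p: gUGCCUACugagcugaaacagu
miR-24-1-5p: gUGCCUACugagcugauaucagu
These 5′ arms share their first 16 bases and are found in a single hairpin from 17 bases on. At the other positions the hairpins shared at most 20 bases in a row, so 0 of 54 windows of 22 bases in Mir23a and 0 of 66 in Mir27a recurred in the paralog. In Mir24-2, 7 of 86 such windows recurred in Mir24-1. The comparison covers annotated hairpins only, and the rest of the genome was not searched.

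**Figure D1:**
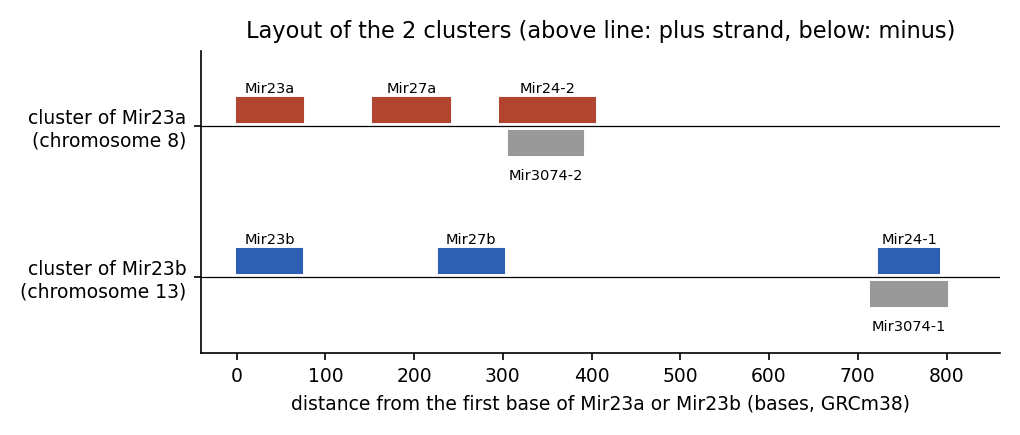
Layout of the clusters to scale, as distance in bases from the first base of Mir23a (upper track) or Mir23b (lower track) on GRCm38. Boxes above a line lie on the plus strand and boxes below it on the minus strand. The cluster of Mir23a spans 404 bases and that of Mir23b 792.

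The layout plot shows that the order of the genes is the same in both clusters while their spacing differs. On GRCm38, Mir23a lies at chr8:84208518-84208592, Mir27a at chr8:84208672-84208758 and Mir24-2 at chr8:84208815-84208921, all on the plus strand. No other GENCODE M21 gene overlaps Mir23a or Mir27a. The end of Mir24-2 touches an exon of the long noncoding RNA Gm26532 on the same strand, and Mir3074-2 is annotated on its minus strand. Mir23b lies at chr13:63300484-63300557, Mir27b at chr13:63300712-63300784 and Mir24-1 at chr13:63301208-63301275, on the plus strand within 2010111I01Rik, the gene of aminopeptidase O. Exons of 0 of its 4 coding transcripts there cover these hairpins, so they are intronic in all 4. Of its transcripts of every type, exons of 0 of 9 cover Mir23b, of 1 of 9 Mir27b and of 4 of 11 Mir24-1. The Fanconi anaemia gene Fancc runs across all 3 hairpins on the minus strand. The gap between the miR-27 and miR-24 hairpins is 56 bases in the cluster of Mir23a and 423 in that of Mir23b. The rows Mir23b, Mir27b and Mir3074-1 carry an older ID version than M21, so the stretch counted for them may differ from these coordinates.

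Replicates 1 and 2 held 7955914 and 10816295 counts on the annotated strand of microRNA genes, to which the CPM values (scaled counts, with each library's total set to 1000000) refer. At this depth 3 counts are worth 0.377 CPM in replicate 1 and 0.277 in replicate 2. All 6 genes passed the minimum of 10 counts in both libraries, which 365 rows of the tables reached. As a check of the tissue label, Mir206, a microRNA made almost only in skeletal muscle, stood at 107144 and 120690 CPM, against 15.5 and 12.1 CPM for the heart gene Mir208a. The other muscle markers listed were far lower than Mir206. Mir133b had 841 and 823 CPM, Mir208b 732 and 763, and Mir499 545 and 442. Mir1a-1 (10.1 and 6.47 CPM) and Mir133a-1 (5.91 and 5.55 CPM) lay below Mir208a, so the check rests mainly on Mir206. The gene rows leave out reads that fit several places, so these low counts need not mean low levels of miR-1 or miR-133a.

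The miR-23 gene held more counts than the miR-27 gene of its cluster on either chromosome. It also held more than the miR-24 gene, whose counts leave out the main arm, so the place of miR-24 itself is not known. The level of Mir23a was 17615 CPM in replicate 1 and 18820 CPM in replicate 2, with a mean of 18218 ± 852 (SD, n = 2). It ranked 16 by mean CPM among the 365 detected genes. Mir23b had 13650 and 13791 CPM, a mean of 13720 ± 99.8, and ranked 19. The replicates of Mir23a lay above those of Mir23b with no overlap.

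At the miR-27 position the order of the clusters was turned round. Mir27a had 399 and 348 CPM, a mean of 374 ± 35.7, at rank 132. Mir27b had 1794 and 1878 CPM, a mean of 1836 ± 59.5, at rank 66. The 2 genes did not overlap.

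At the miR-24 position, with the shared arm left out of the counts, Mir24-2 had 403 and 384 CPM, a mean of 393 ± 13.2, at rank 129. Mir24-1 had 28.2 and 30.1 CPM, a mean of 29.1 ± 1.40, from 224 and 326 counts. It would rank 225 among the detected genes. The highest count, that of Mir23a, stood 625-fold above the lowest, that of Mir24-1 without its main arm, and the median of the 6 means was 1115 CPM, against 87.0 CPM over all detected genes. In the order of levels, Mir23a, Mir23b, Mir27b, Mir24-2, Mir27a and Mir24-1, neighbours did not overlap between libraries, with the exception of Mir24-2 and Mir27a, whose means differed by 19.7 CPM with a combined SD of 38.1.

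**Figure D2:**
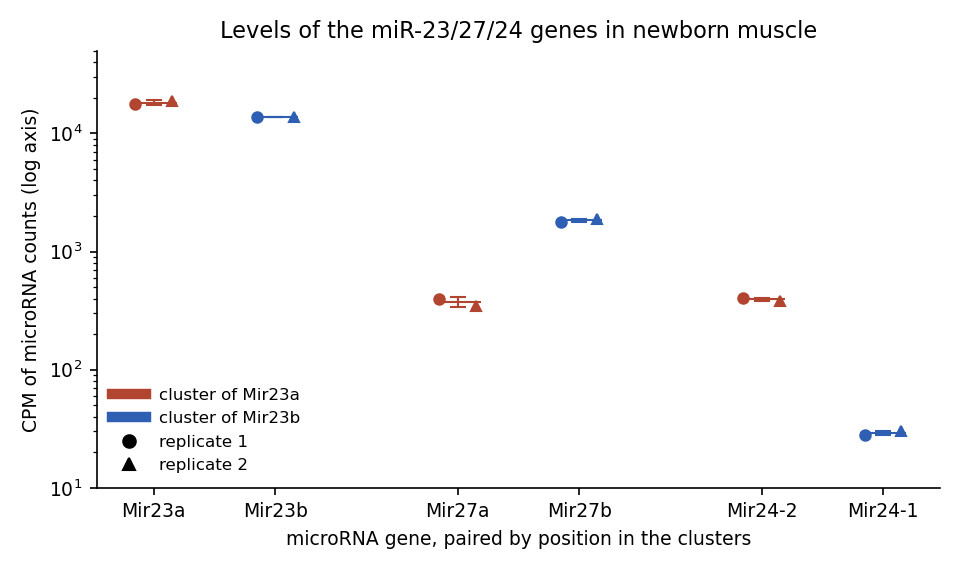
Level of each gene in CPM on a log axis, with circles for replicate 1, triangles for replicate 2, and bars for the mean and SD (n = 2). Mir23a stands above Mir23b, Mir27a below Mir27b and Mir24-2 above Mir24-1. The counts of the miR-24 genes leave out their shared main arm.

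Ratios of the cluster of Mir23a over the cluster of Mir23b were taken within each library, where no scaling between libraries is needed. Each read counted is a short fragment of a hairpin, so counts were not divided by gene length. No correction was made for how well each sequence is captured in a library, so folds between genes are folds of counts. Mir23a exceeded Mir23b 1.29-fold in replicate 1 (95% exact binomial interval 1.28 to 1.30) and 1.36-fold in replicate 2 (1.36 to 1.37). The mean log2 ratio was 0.41 ± 0.06 (SD, n = 2). This is a small difference, of the same sign in both libraries, and larger than their spread.

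Mir27a, by contrast, was lower than its paralog. Its ratio to Mir27b was 0.222 (0.214 to 0.231) in replicate 1 and 0.186 (0.179 to 0.192) in replicate 2, so that Mir27b was 4.92-fold higher on average. The mean log2 ratio was -2.30 ± 0.18 (SD, n = 2). At the miR-24 position only the reads left without the shared arm could be compared. In these, Mir24-2 exceeded Mir24-1 14.3-fold (12.5 to 16.5) in replicate 1 and 12.7-fold (11.4 to 14.3) in replicate 2. The mean log2 ratio was 3.75 ± 0.12. When both strands of each row were counted, this mean log2 ratio was 3.11, because the minus-strand reads of Mir3074-1 were then added to Mir24-1. Intervals cover counting error only.

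The 3 positions therefore gave 3 different ratios of counts, of which that at miR-24 leaves out the shared main arm. The log2 ratio at the miR-23 position exceeded that at the miR-27 position by 2.54 and 2.88 in replicates 1 and 2, a mean of 2.71 ± 0.24 (SD, n = 2). The miR-24 position exceeded the miR-27 position by 6.01 and 6.10, a mean of 6.05 ± 0.07. This gap sets counts without the main arm against counts with it. The ratio of the miR-24 genes with their main arm is not known. As counted, each gap was far above the spread between the libraries. With 2 libraries an exact two-sided sign-flip test cannot give a p below 0.5, so no p-value is attached.

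Shares within each cluster set miR-23 and miR-27 counts that include their main arms, short reads apart, against miR-24 counts that leave out miR-24-3p. The miR-24 shares are lowered by this by an unknown amount. Mir23a made up 95.95% ± 0.429 of the counts of its cluster, Mir27a 1.97% ± 0.272 and Mir24-2 2.08% ± 0.157 (SD, n = 2). Mir23b made up 88.03% ± 0.268 of its cluster, Mir27b 11.8% ± 0.260 and Mir24-1 0.187% ± 0.00707. Mir23a exceeded Mir27a 44.2-fold and 54.0-fold in replicates 1 and 2, while Mir23b exceeded Mir27b 7.61-fold and 7.34-fold. Mir24-2 stood close to Mir27a, with ratios of 1.01 (0.961 to 1.06) and 1.10 (1.05 to 1.15). Mir27b exceeded Mir24-1 63.7-fold (55.8 to 73.0) and 62.3-fold (55.9 to 69.7).

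Summed over its 3 genes, the cluster of Mir23a held 146522 and 211490 counts, 1.90% ± 0.0803 of microRNA counts, and the cluster of Mir23b 123096 and 169812 counts, 1.56% ± 0.0161 (SD, n = 2). The ratio of the sums was 1.19 (1.18 to 1.20) in replicate 1 and 1.25 (1.24 to 1.25) in replicate 2. These sums leave out the miR-24-3p reads that fit both copies, and the miR-23 genes carried most of both sums. Both clusters together took 3.46% ± 0.0964 of microRNA counts.

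Strand decided how Mir24-1 could be read. In the row Mir3074-1, 224 of 379 counts in replicate 1 lay on the opposite strand, that of Mir24-1, a share of 59.1% (95% exact binomial interval 53.97 to 64.1). In replicate 2 they were 326 of 468, a share of 69.7% (65.3 to 73.8). The remaining 155 and 142 counts lay on the strand of Mir3074-1, 19.5 and 13.1 CPM. In the rows of Mir23a, Mir27a, Mir24-2, Mir23b and Mir27b together, 2 counts in replicate 1 and 0 in replicate 2 lay on the opposite strand. They were 1 at Mir24-2, of 3205 counts, and 1 at Mir27b, of 14276. The row Mir24-2 thus held next to no reads on the strand of Mir3074-2. The arm annotated for both Mir3074 genes, which lies antisense to miR-24-3p, is likewise the same at both places.
miR-3074-5p: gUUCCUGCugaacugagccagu
Reads of that whole arm fit both copies and were left out in the same way.

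Mixed rows of this kind were few. Of 375 rows with at least 10 counts over both strands in each library, 12 had most of their counts on the opposite strand, and 3, Mir3074-1 among them, had a mean opposite share between 10% and 90%. The other two, Mir7654 and Mir1b, were named after their values were seen and had shares of 38.7% and 89.8%.

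**Figure D3:**
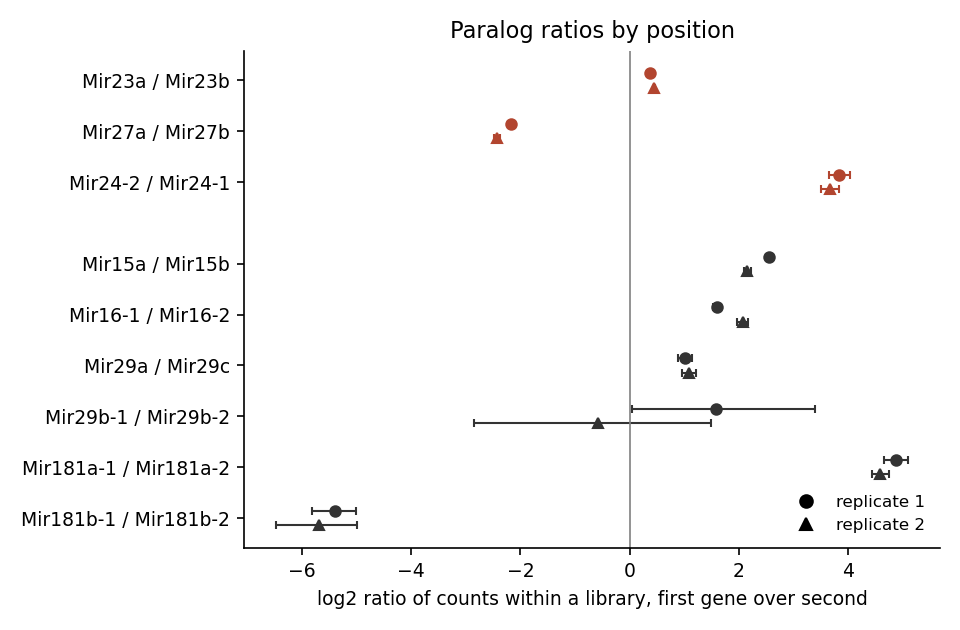
Log2 ratio of counts within a library for paralog pairs, first gene over second, with circles for replicate 1 and triangles for replicate 2. Bars are 95% exact binomial intervals, and ratios lie right of 0 for Mir23a and Mir24-2 over their paralogs and left of 0 for Mir27a over Mir27b. The counts of the miR-24 genes leave out their shared main arm.

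Paralog clusters of 3 other families were set beside these, as shown in the plot of paralog ratios. The miR-15/16 clusters kept 1 direction at both positions: Mir15a exceeded Mir15b with a log2 ratio of 2.36 ± 0.29 (SD, n = 2), and Mir16-1 exceeded Mir16-2 with 1.83 ± 0.33. Mir29a over Mir29c had 1.05 ± 0.04, while Mir29b-1 (15 and 4 counts) and Mir29b-2 (5 and 6 counts) were too few to order. The miR-181 clusters gave ratios of opposite sign at their positions. Mir181a-1 over Mir181a-2 had 4.73 ± 0.21, and Mir181b-1 over Mir181b-2 had -5.54 ± 0.21. The pairs of Mir16, Mir29b, Mir181a and Mir181b each share 1 whole arm, as the miR-24 genes do, so their ratios rest on the reads left without it. No test was made of these descriptions.

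Shared arms of the kind seen in miR-24 were also counted over the tables. Of 335 detected genes with a mature sequence in the RefSeq table, 42 had an arm that was found whole in another hairpin. Their median level was 28.3 CPM, against 107.7 CPM for the 293 others, and 0 of the 42 stood above 10000 CPM, a level that 21 of all detected genes passed. Their median absolute log2 ratio between the libraries was 0.44, against 0.30 for the others. Reads that fit several places are left out, which lowers the counts of the 42 by an unknown amount. The levels of their microRNAs are therefore not compared here. Mir24-2 was above the median of the 42, and Mir24-1 (29.1 CPM) was close to it.

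Between the libraries, none of the 6 genes differed by 1.5-fold, where 23.0% of the 365 detected genes did (84 genes). After trimmed-mean (TMM) scaling the log2 ratio of replicate 1 over replicate 2 was -0.34 (95% counting interval -0.35 to -0.33) for Mir23a, -0.05 (-0.12 to 0.02) for Mir27a and -0.18 (-0.24 to -0.11) for Mir24-2. It was -0.26 (-0.27 to -0.25) for Mir23b, -0.31 (-0.34 to -0.28) for Mir27b and -0.34 (-0.60 to -0.09) for Mir24-1. The interval of Mir24-1 lay below 0 and reached past 1.5-fold, so a difference of that size was within its counting error. The median absolute ratio was 0.29 over the 6 genes and 0.31 over all detected genes. All 6 ratios were below 0 with TMM, with a median of -0.29, against 0.01 over all detected genes. Other genes of high level were below 0 as well, such as Mir206 (-0.42) and Mir126a (-0.32), while Mir335 (0.30) was above. The shared sign was not tested. Library totals move every ratio up by 0.25, and Mir27a (0.20) and Mir24-2 (0.07) were then above 0.

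**Figure D4:**
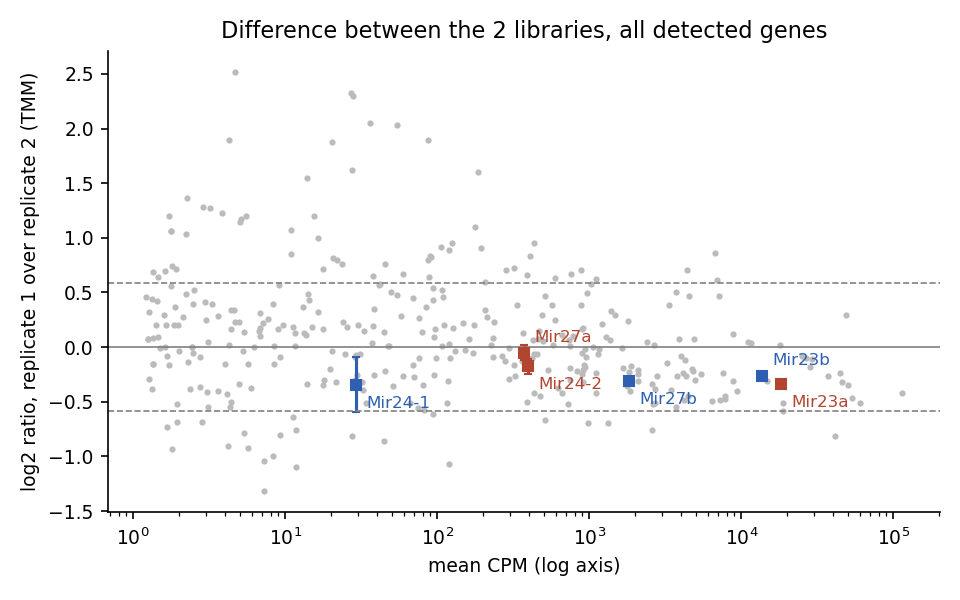
Log2 ratio of replicate 1 over replicate 2 after TMM scaling against mean CPM on a log axis, with grey points for the 365 detected genes and squares for the 6 cluster genes with 95% counting intervals. Dashed lines mark 1.5-fold, and all 6 squares lie between them.

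Other cell types in the tissue could carry part of these counts, since bulk muscle holds vessels, blood and skin. More cells of a type and more RNA per cell cannot be told apart here. The 5 vessel markers found in the tables, of 7 listed, summed to 76634 and 76003 CPM, most of it from Mir126a of endothelium and Mir143 of smooth muscle, and 1 of the 5 passed 1.5-fold between the libraries. The 6 skeletal muscle markers summed to 109277 and 122729 CPM, nearly all from Mir206, and 0 passed. The 7 epithelial and skin markers summed to 531 and 334 CPM with 5 past 1.5-fold, and the 2 erythroid markers to 583 and 286 CPM with 1 past it. Of the 3 leukocyte markers in the tables (634 and 478 CPM) 1 passed, as did the liver gene Mir122 (86.4 and 153 CPM). The 3 neuronal markers summed to 485 and 427 CPM with 0 past it, nearly all from Mir128-1. Mir124a-1 was at 0 counts in both libraries and Mir9-2 at 1 count in each. All marker rows leave out reads that fit several places, so low or absent counts need not mean that a microRNA was low or absent. The part of any of these cell types in the levels of the clusters was not tested.

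By level, the nearest neighbours of Mir23a were Mir379 (18710 CPM ± 2423) and Mir26b (17835 ± 2271), and those of Mir23b were Mir22 (14837 ± 471) and Mir130a (11513 ± 1585). Mir27b stood between Mir501 (1839 ± 143) and Mir151 (1816 ± 19.3), neither of which it differed from beyond the spread. Mir24-2 stood between Mir451a (404 ± 204) and Mir128-2 (389 ± 48.9), and Mir27a between Mir668 (387 ± 166) and Mir152 (364 ± 65.7). Mir24-1 stood between Mir1249 (29.2 ± 2.45) and Mir7-1 (29.0 ± 2.25). With 2 libraries of a single group there is no pattern across conditions, so likeness was taken in level alone.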

How the data were processed

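The authors deposited raw counts for 1973 microRNA genes in each of 2 libraries, with assembly mm10 and annotation GENCODE M4 per the readme deposited with each table. No aligner or counter is named in the sources used here. The tables give counts for both strands and for each strand, of which the fuller was read as the annotated strand. This is inferred from the values and stated by no source used here. The 4 rows for reads that name no gene stayed out of library sizes. These were unmapped reads, reads of more than 1 place (28.01% and 26.9%), reads in no gene, and ambiguous reads (0).

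IDs were matched without version to GENCODE M21 on GRCm38 (1894 of 1973). CPM use annotated-strand microRNA totals. The chi-square of the libraries' counts over 365 genes with at least 10 counts in both was 575 times its degrees of freedom, so they differ by more than counting noise. Position ratios and shares have exact (Clopper-Pearson) 95% intervals (scipy 1.17.1). Replicate ratios used TMM (edgeR 4.0.16, R 4.3.3) over detected genes and a fold of 1.5, without p-values, since both libraries belong to 1 group. Sequences came from RefSeq. The code of the replicate ratios and the 1.5-fold call was checked on simulated data with counting noise only, less than these libraries show. The position ratios were not simulated. Alternatives were DESeq2 1.42.0 size factors, library totals, both strands, other denominators, count minimums of 1 and 50, a fold of 2, and leaving out each replicate. The members, lists and alternatives were chosen with earlier results of these data known. Named genes were the members, their neighbours in level, 3 comparable families, and the markers. Mir126b, Mir92a-1 and Mir142 of the marker lists had no matching symbol, so the vessel and leukocyte sums leave them out. The rows Mir92-1 (939 CPM) and Mir142b (7306 and 6286 counts on the opposite strand) were not added in their place. These sums may therefore be too low.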

Additional observations from a re-analysis of the deposited data

How the results depend on the processing

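The direction at each position, and of the cluster sums, was kept when both strands of each row were counted and when either replicate was left out. Leaving out a replicate only gives back the ratio of the other library. Both strands added at most 1 count to a miR-23 or miR-27 row. Neither setting could therefore turn the direction at those positions, and neither adds support to it. The log2 ratio at the miR-24 position moved to 3.11 with both strands counted, while leaving out a replicate gave 3.67 to 3.84. It was 0.37 to 0.45 at the miR-23 position, -2.43 to -2.17 at the miR-27 position and 0.25 to 0.32 for the cluster sums. With both strands in counts and totals, the cluster of Mir23a took 1.68% of counts and that of Mir23b 1.38%, below 1.90% and 1.56%, since the total grew. Ranks given above use the annotated strand only. With both strands of the rows counted, Mir23a ranked 18, Mir23b 22, Mir27b 73, Mir24-2 138 and Mir27a 141, each lower than above. Mir24-1, with the reads of Mir3074-1 then included, ranked 216. The number of detected genes past 1.5-fold between replicates was 84. It was 84 with DESeq2 size factors, 106 with library totals and 59 with a count minimum of 50. It was 232 with a minimum of 1 count, where 591 genes were compared, and 30 with a fold of 2. With reads of more than 1 place added to the total, all 6 levels were lower, such as 11763 CPM for Mir23a. No paired analysis was possible because both libraries belong to a single group. Depth limits Mir24-1 most, and the shared arm limits the miR-24 position.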
